A study of Mus musculus with 15 samples.

Results

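Transcripts of the tricarboxylic acid (TCA) cycle and of fatty acid oxidation were examined in gonadal white adipose tissue of Sfrp5 knockout and wild-type mice. The set comprised 38 genes grouped by pathway: 17 genes of the TCA cycle and of pyruvate entry into it, 19 genes of fatty acid oxidation, and the PPAR receptor genes Ppara and Ppard. Each gene was represented by the brightest probe set that the platform annotation assigns to that gene alone. This rule found 37 of the 38 genes among 19938 named genes of the array. Cpt1b, the muscle-type carnitine palmitoyltransferase, was left out because its probe set is also assigned to a second gene.

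The tissue came from male mice of the C57BL6/J strain, 8 carrying the Sfrp5 knockout allele (Q27Stop) and 7 of wild type. All 15 mice, the wild type included, were fed high-fat chow from 4 until 12 weeks of age, when the tissue was taken. Sfrp5 is a secreted protein that binds Wnt ligands, and the allele places a stop codon early in its coding sequence. Each mouse gave 1 Affymetrix array of 35557 probe sets, with values on the log2 scale.

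The TCA cycle oxidises acetyl-CoA in the mitochondrial matrix and passes its electrons to the respiratory chain. Fatty acid oxidation supplies that acetyl-CoA: the carnitine shuttle carries long-chain acyl groups into the matrix, dehydrogenases, hydratases and thiolases shorten them stepwise, and the electron transfer flavoprotein collects electrons from the first step. White adipocytes store rather than burn most of their fatty acids, and their TCA cycle also provides citrate for lipid synthesis. PPAR alpha and PPAR delta are fatty acid-activated nuclear receptors that switch on many oxidation genes in liver and muscle.

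Promoter sequences are shown for the genes on which the description of covariation turns. Mdh2 followed the other enzymes most closely across mice, Acadl and Etfdh formed the most tightly correlated pair, Hadha and Hadhb start back to back, and Cpt1a did not follow the rest. Each sequence is the 250 bases before the annotated start, 5′ to 3′ on the gene's strand, from RefSeq in build GRCm38.p6. Capitals mark matches on either strand to GGGCGG (the GC box), CCAAT, the palindromic NRF1 site or AGGTCA (the nuclear receptor half-site).
Mdh2, chr5:135778399-135778648, plus strand: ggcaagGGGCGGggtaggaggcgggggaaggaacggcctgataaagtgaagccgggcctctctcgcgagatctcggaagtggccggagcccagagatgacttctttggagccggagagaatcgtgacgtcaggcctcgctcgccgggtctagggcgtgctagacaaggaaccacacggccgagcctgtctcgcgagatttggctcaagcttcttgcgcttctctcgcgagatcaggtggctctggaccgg
Acadl, chr1:66863310-66863559, minus strand: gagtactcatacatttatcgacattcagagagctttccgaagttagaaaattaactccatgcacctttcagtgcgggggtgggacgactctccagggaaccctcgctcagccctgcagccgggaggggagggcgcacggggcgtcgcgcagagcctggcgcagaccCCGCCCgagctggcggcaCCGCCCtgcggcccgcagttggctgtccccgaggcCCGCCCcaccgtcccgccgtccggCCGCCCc
Etfdh, chr3:79628768-79629017, minus strand: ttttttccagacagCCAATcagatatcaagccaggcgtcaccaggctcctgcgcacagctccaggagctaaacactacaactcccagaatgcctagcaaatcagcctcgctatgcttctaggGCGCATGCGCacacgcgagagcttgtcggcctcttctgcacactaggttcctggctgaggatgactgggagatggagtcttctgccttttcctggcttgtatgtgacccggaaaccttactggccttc
Hadhb, chr5:30155003-30155252, plus strand: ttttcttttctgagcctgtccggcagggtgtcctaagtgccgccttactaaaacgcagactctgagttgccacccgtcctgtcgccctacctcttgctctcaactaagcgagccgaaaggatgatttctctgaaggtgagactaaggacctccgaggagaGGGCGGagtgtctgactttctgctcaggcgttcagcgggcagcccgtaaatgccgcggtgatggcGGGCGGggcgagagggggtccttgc
Cpt1a, chr19:3323051-3323300, plus strand: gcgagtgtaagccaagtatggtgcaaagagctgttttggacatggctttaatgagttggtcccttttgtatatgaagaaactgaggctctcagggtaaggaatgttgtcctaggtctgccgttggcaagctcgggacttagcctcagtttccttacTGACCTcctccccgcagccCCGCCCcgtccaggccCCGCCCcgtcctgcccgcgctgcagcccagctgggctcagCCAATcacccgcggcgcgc

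The RefSeq promoter table matched 34 of the 38 genes, all but Idh3a, Cpt1b, Acaa2 and Decr1. It held 40 windows for these 34 genes. A gene was counted if any of its windows matched, here and over all genes. GGGCGG or its complement CCGCCC occurred in a window of 24 of the 34, against 35.4% of 27025 genes in the table. CCAAT or ATTGG occurred in 17 of the 34, against 37.5% of all genes, and AGGTCA or TGACCT in 6, against 15.8%. The NRF1 site was present at Etfdh and Ppara, against 0.877% of all genes. TATAAA or TTTATA was in none of the 34, against 14.3%. The Hadhb window lies wholly between the starts of Hadha and Hadhb, which are 272 bases apart on opposite strands of chromosome 5. These matches describe letters in the windows and no binding was measured. The 27025 genes were not matched to the 34 in signal level or kind of gene. The part of signal level in these contrasts was not tested.

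Sfrp5 itself, the check of the labels, read 6.69 ± 0.40 (SD, n = 8) in knockout and 7.92 ± 0.24 (SD, n = 7) in wild-type arrays, with no overlap. Its log2 difference was -1.23 (SE 0.16; limma's Benjamini-Hochberg adjusted p = 0.0200 over all probe sets). The call was lost in 4 of 11 alternative settings and in 7 of 15 fits without 1 array, where the adjusted p ran from 0.00413 to 0.0670, and Sfrp5 stayed lower in all of these. The labelled tissue carried its defining markers: Adipoq, the adiponectin gene, read 12.58 to 12.79 in knockout and 12.33 to 12.67 in wild-type arrays, at the 99.7th percentile of named genes. Ucp1, which marks brown fat, read 5.43 to 5.95 in knockout and 5.49 to 6.22 in wild-type arrays, at the 17.3th percentile of named genes. Other listed brown fat markers were spread widely in level. Cidea, Dio2 and Prdm16 lay at the 24.3th, 26.1th and 42.7th percentile, and Ppargc1a, Cox7a1 and Cox8b at the 66.1th, 84.9th and 92.5th. Some arrays stood apart. Knockout replicate 2 averaged 10.52 and wild-type replicate 4 averaged 7.85 over 10 epididymis and testis markers, where the remaining arrays lay from 5.63 to 7.26. Knockout replicate 8 averaged 9.83 and wild-type replicate 2 averaged 9.36 over 15 macrophage markers, where the remaining arrays lay from 8.48 to 9.08. In pieces of whole tissue, fewer cells of a type and less RNA per cell cannot be told apart.

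No gene of either pathway differed between the genotypes beyond the spread between mice. Limma called 0 of the 37 genes at an adjusted p below 0.05, where 0.0337% of all probe sets passed. None had an unadjusted p below 0.05 either, against 9.97% of all probe sets and 6.69% of named genes. In the knockout 17 of the 37 were higher and 20 lower, and 44.8% of all named genes were higher. After quantile normalization 11 were higher and 26 lower, and the median log2 difference over all probe sets was -0.00878. The share of all named genes that was higher in that setting was not counted. The log2 differences, knockout minus wild type, ran from -0.14 for Idh3a to 0.16 for Etfb, and adjusted p ran from 0.553 to 0.997. The ranges of the genotypes overlapped for all 37 genes. Such overlap was not counted over all named genes, so it does not set these genes apart.

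The arrays bounded the size of any change rather than showing that there was none. The 95% confidence interval of the log2 difference stayed inside a change of 1.25-fold (0.32 on the log2 scale) in either direction for 34 of the 37 genes. The 3 genes whose interval reached beyond it were Idh3a (-0.35 to 0.07), Ehhadh (-0.37 to 0.20) and Etfb (-0.05 to 0.37). The SE of a member's difference had a median of 0.0765, against 0.0844 over all named genes.

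**Figure D1:**
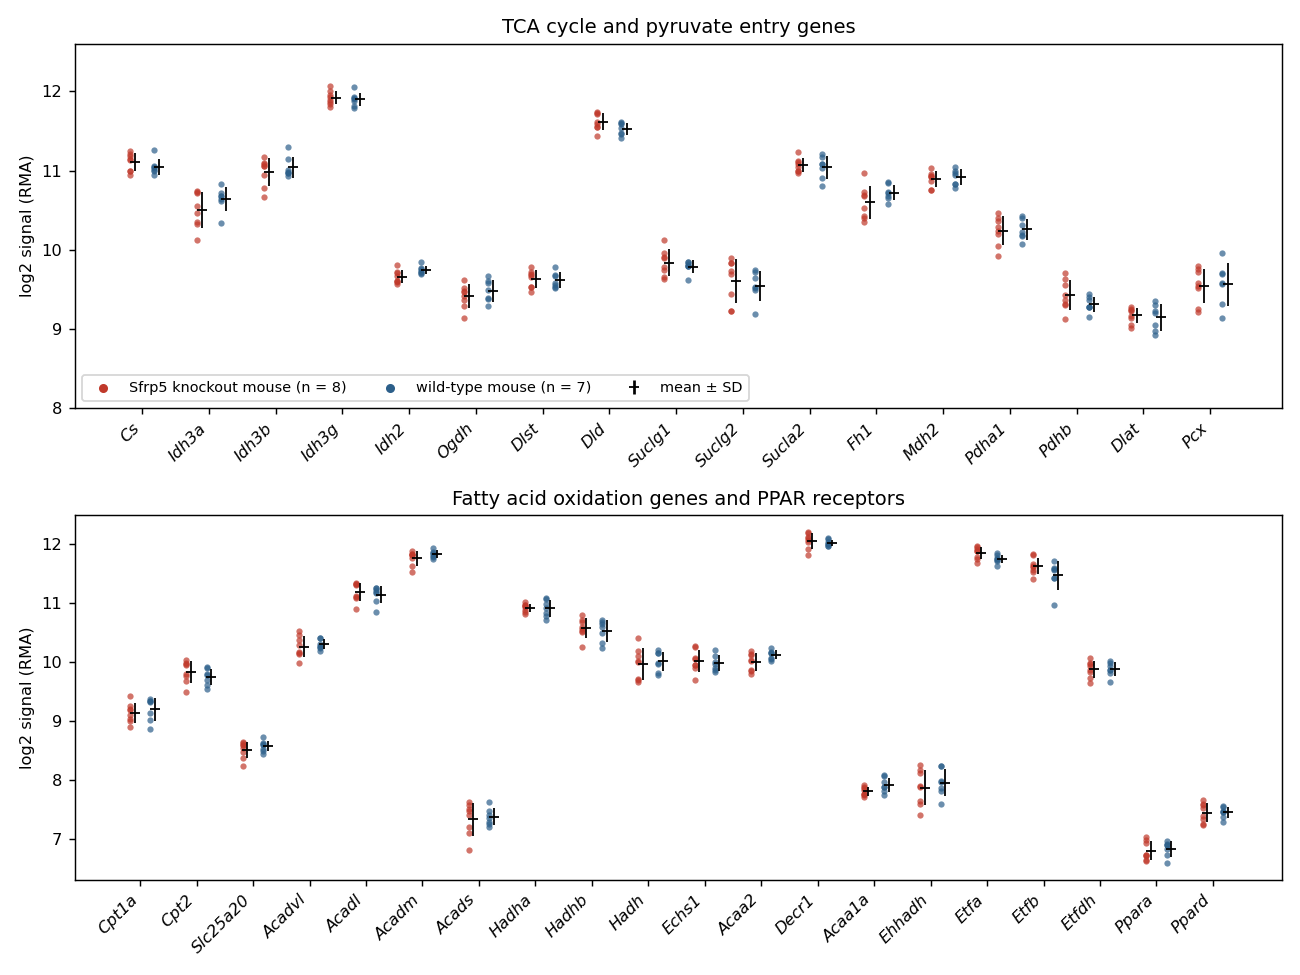
Signal of each of the 37 genes on the log2 scale (vertical axis) in each mouse, for TCA cycle and pyruvate genes (top) and fatty acid oxidation and PPAR receptor genes (bottom). Red points are 8 Sfrp5 knockout mice, blue points 7 wild-type mice, and black marks mean ± SD; the genotypes overlap for every gene shown.

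**Figure D2:**
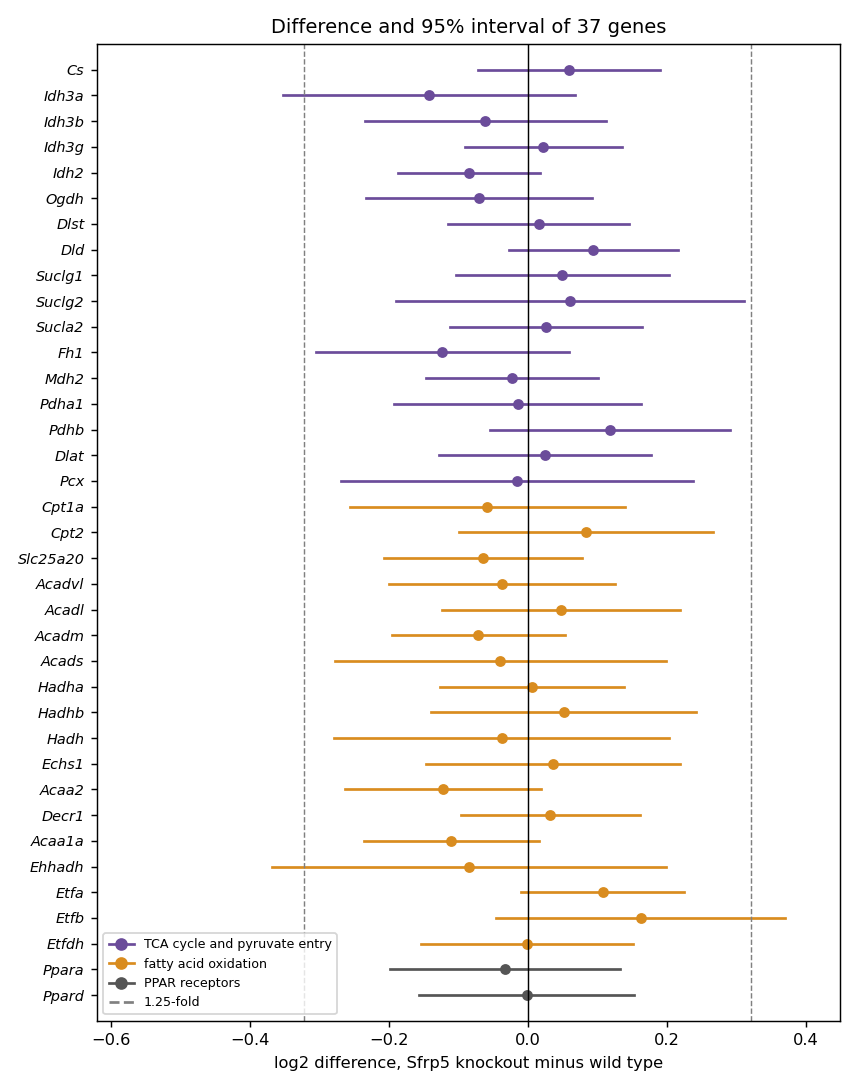
Log2 difference, Sfrp5 knockout minus wild type (horizontal axis), with its 95% confidence interval from limma for each of the 37 genes. Every interval includes 0, and those of Idh3a, Ehhadh and Etfb cross the dashed lines at 1.25-fold.

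Among the 13 enzymes of the TCA cycle proper, 7 were higher and 6 lower in the knockout, with a median log2 difference of 0.02. The median over all named genes was -0.01. Cs encodes citrate synthase, which starts the cycle. It read 10.95, 11.14 and 11.25 (lowest, median and highest) in knockout arrays, against 10.95, 11.04 and 11.27 in wild-type arrays. The wild-type highest came from replicate 1 alone, and the other wild-type arrays lay at or below 11.05. The difference was 0.06 (SE 0.06), and without that array 0.10 (SE 0.06; limma adjusted p = 0.669).

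Isocitrate dehydrogenase uses NAD when built from the Idh3 subunits and NADP when encoded by Idh2. Idh3g, the gamma subunit, read 11.81, 11.92 and 12.06 in knockout arrays, against 11.79, 11.91 and 12.05 in wild-type arrays. Its log2 difference was 0.02 (SE 0.05; limma adjusted p = 0.935). Idh2 had the lowest p of the group, with 9.57, 9.64 and 9.81 in knockout and 9.69, 9.73 and 9.85 in wild-type arrays. Of the 8 knockout arrays 1 lay above the wild-type mean of Idh2. The difference was -0.08 (SE 0.05; limma adjusted p = 0.607), which did not pass. The catalytic alpha subunit Idh3a differed by -0.14 (SE 0.10) and Idh3b by -0.06 (SE 0.08). None of the 3 subunits passed, and the sign of Idh3g turned after quantile normalization (-0.0474).

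The later steps gave values on both sides of 0. The oxoglutarate dehydrogenase subunits Ogdh, Dlst and Dld differed by -0.07, 0.02 and 0.09 (SE 0.08, 0.06 and 0.06). Dld, the subunit shared with the pyruvate complex, read 11.44, 11.61 and 11.75 in knockout arrays, against 11.41, 11.54 and 11.61 in wild-type arrays. Succinyl-CoA ligase has the subunits Suclg1, Suclg2 and Sucla2, which differed by 0.05, 0.06 and 0.03. Fumarase, Fh1, differed by -0.12 (SE 0.09) and malate dehydrogenase, Mdh2, by -0.02 (SE 0.06). Suclg2 was read by a pair of probe sets that followed each other across mice (Pearson's r = 0.984) and gave differences of 0.06 and -0.01, within their SE of 0.12 and 0.11.

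Pyruvate enters the cycle through pyruvate dehydrogenase, whose subunits include Pdha1, Pdhb and Dlat, or through pyruvate carboxylase, Pcx. Pdha1 read 9.92, 10.27 and 10.47 in knockout arrays, against 10.07, 10.23 and 10.43 in wild-type arrays. Pdhb had the lowest p, with 9.13, 9.40 and 9.70 in knockout and 9.15, 9.28 and 9.44 in wild-type arrays. Its knockout range reached higher but 2 of the 8 knockout arrays lay below the wild-type mean, and the difference of 0.12 (SE 0.08) did not pass (limma adjusted p = 0.698). Pcx varied over mice more than 82.9% of named genes, from 9.22 to 9.79 in knockout and from 9.14 to 9.95 in wild-type arrays, and differed by -0.02 (SE 0.12). Pcx and Cpt1a both lie on chromosome 19, which also carries Sfrp5.

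Of the 3 measured genes of the carnitine shuttle, Cpt2 was higher and Cpt1a and Slc25a20 lower, none past the threshold. Cpt1a, the outer membrane transferase that controls entry of long-chain fatty acids, read 8.89, 9.15 and 9.43 in knockout arrays, against 8.86, 9.32 and 9.36 in wild-type arrays. Its difference was -0.06 (SE 0.09), with an interval from -0.26 to 0.14. Cpt2, the inner membrane transferase, read 9.48, 9.87 and 10.03 in knockout and 9.54, 9.78 and 9.91 in wild-type arrays, a difference of 0.08 (SE 0.09; limma adjusted p = 0.827). Slc25a20, the carnitine-acylcarnitine carrier, differed by -0.06 (SE 0.07).

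The 10 genes of mitochondrial beta-oxidation divided into 5 higher and 5 lower in the knockout, with a median log2 difference of -0.02. The acyl-CoA dehydrogenases, which take acyl chains of falling length, gave Acadvl -0.04, Acadl 0.05, Acadm -0.07 and Acads -0.04. Hadha and Hadhb, the subunits of the trifunctional protein, differed by 0.01 and 0.05, and the second Hadhb probe set also gave 0.05. Hadh, the hydroxyacyl-CoA dehydrogenase of shorter chains, read 9.65, 10.01 and 10.41 in knockout arrays, against 9.78, 9.98 and 10.20 in wild-type arrays, a wider range in the knockout.

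Acaa2, the matrix thiolase, had the lowest p among the beta-oxidation genes of the mitochondrion. It read 9.80, 10.02 and 10.18 in knockout arrays, against 10.02, 10.15 and 10.24 in wild-type arrays. The difference was -0.12 (SE 0.07; limma adjusted p = 0.583), and the upper part of the knockout range overlapped the wild type. Decr1, the dienoyl-CoA reductase for unsaturated chains, read 11.82, 12.09 and 12.21 in knockout and 11.97, 12.01 and 12.10 in wild-type arrays. Its difference was 0.03 (SE 0.06). The hydratase Echs1 differed by 0.04 (SE 0.09).

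Both peroxisomal enzymes were lower in the knockout without passing. Acaa1a, the peroxisomal thiolase, read 7.71, 7.79 and 7.91 in knockout arrays, against 7.74, 7.88 and 8.08 in wild-type arrays, and differed by -0.11 (SE 0.06; limma adjusted p = 0.580). Of the 8 knockout arrays 1 lay above the wild-type mean of Acaa1a. Ehhadh, the bifunctional hydratase and dehydrogenase, read 7.40, 7.89 and 8.25 in knockout and 7.58, 7.96 and 8.23 in wild-type arrays. Ehhadh varied more than any other member, with an SD over mice within a genotype of 0.27 and a difference of -0.08 (SE 0.13).

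The subunits of electron transfer flavoprotein did not pass the threshold, although Etfa had the lowest p of the 37 genes. Etfa, the alpha subunit, read 11.67, 11.88 and 11.97 in knockout arrays, against 11.63, 11.74 and 11.84 in wild-type arrays, and 7 of 8 knockout arrays lay above the wild-type mean. The difference was 0.11 (SE 0.06; limma adjusted p = 0.553). Etfb, the beta subunit, read 11.41, 11.62 and 11.83 in knockout and 10.97, 11.57 and 11.72 in wild-type arrays, a difference of 0.16 (SE 0.10; limma adjusted p = 0.639). The low wild-type value came from replicate 7, and the remaining wild-type arrays started at 11.42. Without that array the Etfb difference was 0.08 (SE 0.07; limma adjusted p = 0.791). Etfdh, which hands the electrons to ubiquinone, differed by -0.00 (SE 0.07).

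Neither receptor gene passed the threshold. Ppara read 6.62, 6.72 and 7.03 in knockout arrays, against 6.58, 6.89 and 6.96 in wild-type arrays (difference -0.03, SE 0.08). Ppard read 7.24, 7.45 and 7.65 in knockout arrays, against 7.28, 7.46 and 7.55 in wild-type arrays (difference -0.00, SE 0.07). These signals lay at the 39.5th and 55.6th percentile of named genes, and whether they stood above background could not be assessed from these values.

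Of 22 measured genes around the TCA cycle and pyruvate, 9 were higher, 13 lower and none had an unadjusted p below 0.05. The oxoglutarate carrier Slc25a11 differed by 0.13, cytosolic Idh1 by 0.09 and Pdpr, the regulatory subunit of pyruvate dehydrogenase phosphatase, by -0.11. Of 23 further fatty acid oxidation genes 9 were higher and 14 lower, with 2 below 0.05 (8.70%, against 6.69% of named genes) and none past the adjusted threshold. Acot2, a mitochondrial acyl-CoA thioesterase, read 7.22 to 7.83 in knockout and 7.04 to 7.42 in wild-type arrays (difference 0.28, SE 0.09; limma adjusted p = 0.263). Acsl5, an acyl-CoA synthetase on chromosome 19, read 9.27 to 9.74 in knockout and 9.49 to 9.80 in wild-type arrays (difference -0.17, SE 0.07; limma adjusted p = 0.408). For genes on the chromosome of Sfrp5, effects of its loss and of linked sequence cannot be told apart. The next in p was Decr2, a peroxisomal reductase, at -0.14. Among 16 PPAR targets and partners 8 were higher and 8 lower, none below 0.05, with Ppargc1b at 0.13, Vnn1 at -0.18 and Pparg at -0.07.

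The 2 pathways moved together from mouse to mouse within both genotypes. The mean log2 level of the 17 TCA and pyruvate genes was 10.31 ± 0.11 (SD, n = 8) in knockout and 10.31 ± 0.09 (SD, n = 7) in wild-type mice, and that of the 18 measured fatty acid oxidation genes was 10.03 ± 0.12 in knockout and 10.04 ± 0.10 in wild-type mice. Knockout replicate 6 (10.47) and wild-type replicate 1 (10.46) had the highest TCA means, and they also led their genotypes in fatty acid oxidation (10.17 and 10.16). After each genotype's mean was taken out, the pathway means correlated over the 15 mice with Pearson's r = 0.834 and Spearman's rho = 0.871. Within genotypes r was 0.782 over 8 knockout mice and 0.929 over 7 wild-type mice. These correlations are descriptions without a p-value, and the points share the normalization of their arrays and the mix of cells in each piece of tissue.

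**Figure D3:**
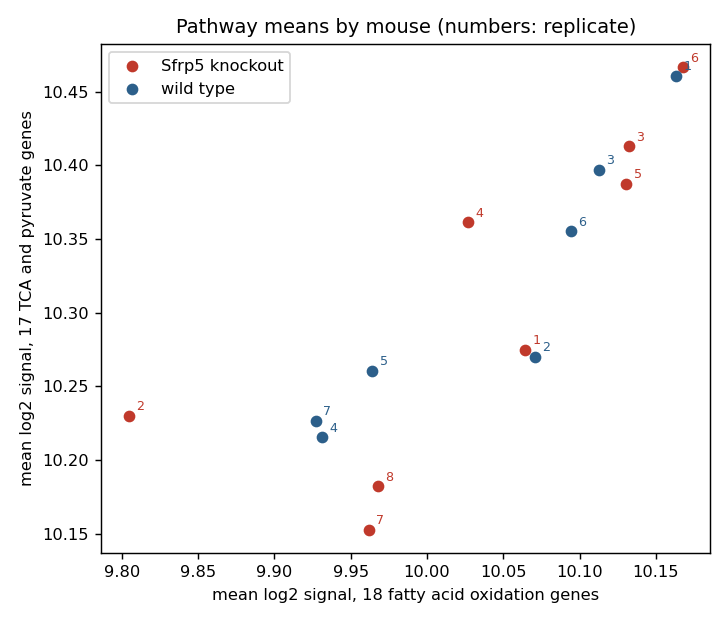
Mean log2 signal of 18 fatty acid oxidation genes (horizontal axis) and of 17 TCA and pyruvate genes (vertical axis), 1 point per mouse, red for knockout and blue for wild type, numbered by replicate. Knockout replicate 2 lies farthest left at 9.80, and knockout replicates 7 and 8 lie lowest at 10.15 and 10.18.

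The relation did not rest on a few arrays. Knockout replicate 2 and wild-type replicate 7 lay farthest from the median of the fatty acid oxidation means, and r was 0.906 without them. Without the arrays high in epididymis markers, knockout replicate 2 and wild-type replicate 4, r was 0.905, and without those high in macrophage markers it was 0.862. Knockout replicate 2 had the lowest fatty acid oxidation mean of all, 9.80, but 4 arrays lay below its TCA mean of 10.23, among them knockout replicates 7 and 8.

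Gene by gene, 561 of 595 pairs of enzymes correlated positively, with a median r of 0.534. The median was 0.562 within the TCA set, 0.533 within the fatty acid oxidation set and 0.512 between the sets. Of the enzyme pairs 54.3% had r above 0.5, against 9.46% of pairs that joined an enzyme with any other named gene, where the median was 0.03. These other genes were not matched to the enzymes in level, and 31 of the 35 enzymes lay above the 80th percentile of named genes. The part of signal level in this contrast was not tested. Pairs share genes and mice, so they are not independent.

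Mdh2 followed the mean of the other enzymes most closely (r = 0.930), then Hadh (0.911) and Acaa2 (0.897). Hadh read 10.41 in knockout replicate 6 and 9.65, 9.69 and 9.71 in knockout replicates 2, 7 and 8, where the enzymes as a whole were high and low. Acadl and Etfdh, whose promoters are printed above, had the highest r of any enzyme pair at 0.929, followed by Cpt2 with Acaa2 (0.897) and Acadvl with Echs1 (0.897). Hadha and Hadhb, with their starts 272 bases apart, correlated at 0.749, and at 0.762 by the second Hadhb probe set.

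A few members stood outside this pattern. Cpt1a had r = -0.07 with the mean of the other enzymes, Acaa1a 0.235 and Pdhb 0.269. Cpt1a ran opposite to Suclg2 (r = -0.71) and Idh3g (-0.64) and with Hadha (0.612) and Idh3a (0.412). Against the other enzymes it had r = -0.34 over knockout mice and 0.263 over wild-type mice. In knockout replicate 8 Cpt1a was at its highest, 9.43, and Suclg2 at 9.23, while in knockout replicate 4 Cpt1a was at 8.89 and Suclg2 at its highest, 9.90. Pdhb followed the rest over wild-type mice (r = 0.869, n = 7) and not over knockout mice (r = 0.06, n = 8), and this difference was not tested; Pdhb was named here after its values were seen. Ppara had r = -0.21 with the enzymes over all mice, with -0.57 over knockout and 0.411 over wild-type mice, and Ppard had 0.259, with 0.239 over knockout and 0.320 over wild-type mice. These differences between genotypes were not tested either.

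**Figure D4:**
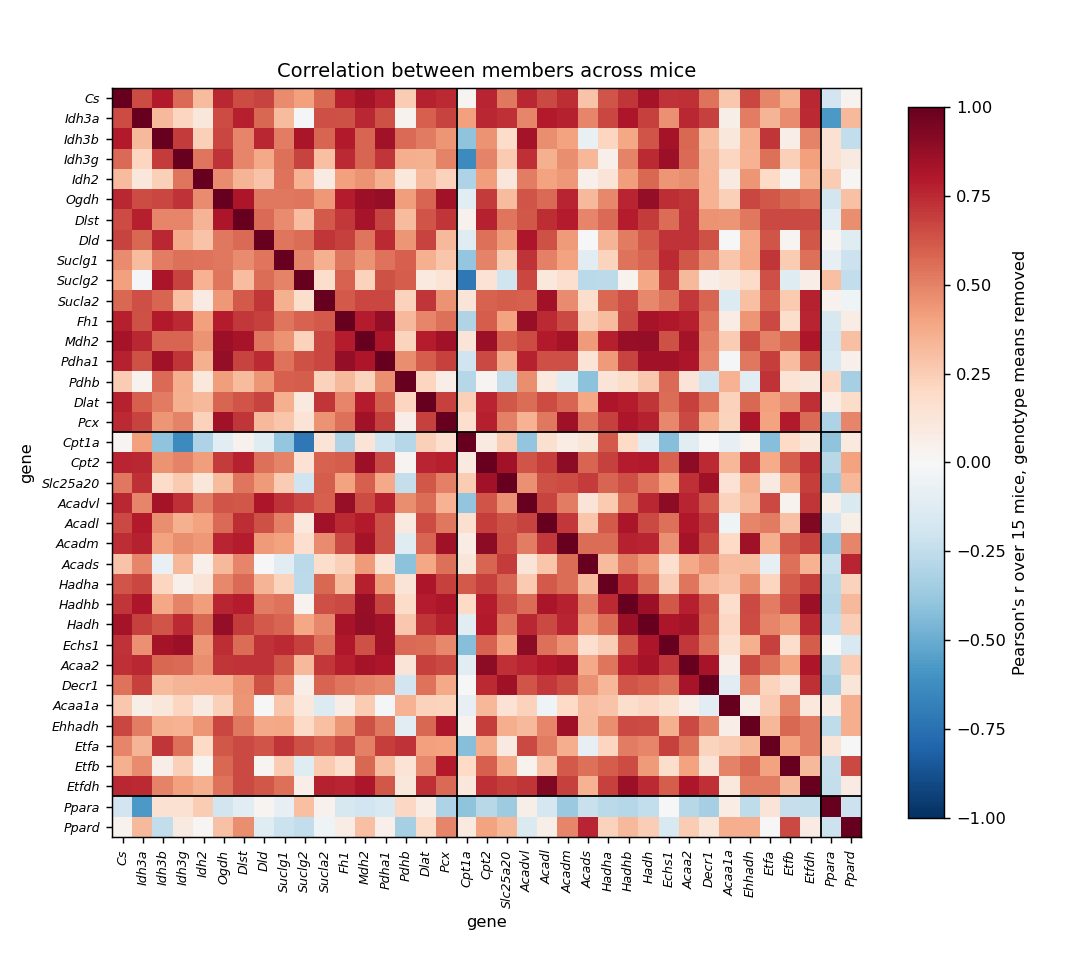
Pearson's r between each pair of the 37 genes over 15 mice after removal of genotype means, from blue (negative) to red (positive), with black lines between TCA and pyruvate genes, fatty acid oxidation genes and PPAR receptors. Most squares among the enzymes are red, with a median of 0.534, and the rows of Cpt1a, Acaa1a and Ppara are paler or bluer for most partners, with exceptions such as Cpt1a with Hadha at 0.612.

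The enzymes were set against 12 other gene lists in the same way. The TCA mean correlated with the mean of 22 respiratory chain subunits at r = 0.925 (rho = 0.893) and the fatty acid oxidation mean at 0.694 (rho = 0.754). With the mean of 12 adipocyte markers the order was the other way round, with r = 0.815 (rho = 0.832) for fatty acid oxidation and 0.612 (rho = 0.654) for the TCA genes. Without the 2 arrays farthest in the adipocyte markers these were 0.721 and 0.591. Over wild-type mice alone they were 0.791 and 0.735, and over knockout mice alone 0.857 and 0.530. With the respiratory chain, fatty acid oxidation and TCA gave 0.831 and 0.893 over wild-type mice, and 0.621 and 0.942 over knockout mice. With the 23 further fatty acid oxidation genes r was 0.844 for the fatty acid oxidation mean and 0.923 for the TCA mean. With the 22 further TCA and pyruvate genes these were 0.826 and 0.946. The 16 PPAR targets and partners gave r = -0.39 for the fatty acid oxidation mean and -0.06 for the TCA mean. Over wild-type mice these were -0.69 and -0.49, and over knockout mice -0.23 and 0.177. Etfb (r = 0.868) and Pcx (0.888) correlated with the adipocyte markers most closely of all members. With the adipocyte mean regressed out of both, r between the pathway means was 0.732. This adjustment was chosen after seeing the data and left markers of other cells in. The part of adipocyte content in the relation was not tested.

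Markers of other cells varied over the same mice. Fatty acid oxidation correlated with mesothelial markers at r = -0.52 (rho = -0.64) and TCA genes at -0.28. Over wild-type mice these r values were -0.81 and -0.54, and over knockout mice -0.28 and -0.02. With progenitor markers r was -0.56 for the TCA mean and -0.24 for fatty acid oxidation. Without knockout replicates 1 and 2, the farthest in that list, these were -0.83 and -0.84. Over wild-type mice they were -0.84 and -0.895, and over knockout mice -0.44 and 0.05. Differences between the genotypes in these correlations were not tested. With macrophage markers r was -0.44 for the TCA mean and 0.01 for fatty acid oxidation, and -0.26 and 0.206 without knockout replicate 8 and wild-type replicate 2. With epididymis markers it was -0.55 for fatty acid oxidation, but rho was -0.11. That r turned to 0.396 without knockout replicate 2 and wild-type replicate 4. Brown fat markers gave 0.324 for fatty acid oxidation and 0.281 for the TCA mean. Over wild-type mice these were 0.664 and 0.638, and over knockout mice 0.08 and 0.02. Endothelial markers gave 0.440 for fatty acid oxidation and 0.08 for the TCA mean. Without the 2 arrays farthest in that list these were -0.16 and -0.47. Skeletal muscle markers gave 0.220 for fatty acid oxidation and -0.09 for the TCA mean. Between genotypes, the mesothelial list was higher in the knockout for 9 of 9 genes, with means of 7.83 to 8.66 in knockout and 7.25 to 8.52 in wild-type arrays. Of all named genes 44.8% were higher. In limma 4 of these 9 genes had an unadjusted p below 0.05 (44.4%, against 6.69% of named genes), and 0 passed the adjusted threshold. The adipocyte list was higher for 9 of 12, with means of 11.46 to 11.73 in knockout and 11.36 to 11.70 in wild-type arrays, and the macrophage list for 13 of 15, with 8.48 to 9.83 in knockout and 8.66 to 9.36 in wild-type arrays. Higher too were 7 of 8 progenitor, 17 of 22 respiratory chain, 8 of 10 epididymis and 8 of 11 skeletal muscle genes. Lower in the knockout were 8 of 9 endothelial and 5 of 7 brown fat markers. The part of these lists in the member values was not tested.

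**Figure D5:**
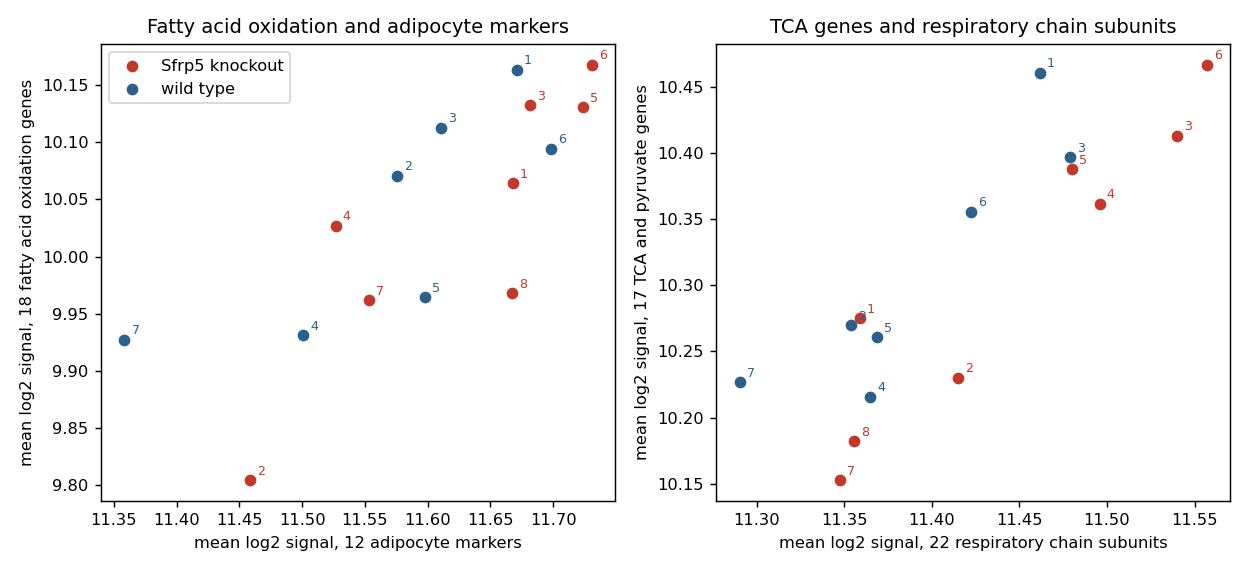
Left, mean log2 signal of 12 adipocyte markers (horizontal axis) and of 18 fatty acid oxidation genes (vertical axis); right, that of 22 respiratory chain subunits and of 17 TCA and pyruvate genes. Each point is a mouse numbered by replicate, red for knockout and blue for wild type, and r over the 15 mice with genotype means removed is 0.815 on the left and 0.925 on the right.

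Among 19901 named genes outside the set, the 8 whose levels were most like the mean of the 35 enzymes over 15 mice were Dgkd (r = 0.948), Pgm1 (0.935), Bckdhb (0.931), Mtch2 (0.929), Dnajc28 (0.928), Dgat1 (0.924), Ints10 (0.922) and Lama4 (0.922). Dgkd encodes a diacylglycerol kinase, Bckdhb a subunit of the mitochondrial complex that breaks down branched-chain keto acids, Mtch2 a protein of the outer mitochondrial membrane and Dgat1 the acyltransferase that completes triglycerides. Roles of Pgm1, Dnajc28, Ints10 and Lama4 are not given here, and whether the 8 genes share a function was not tested. They were taken as the highest r among 19901 genes over 15 mice, a choice that raises their r values. The lowest r belonged to Atpif1, the inhibitor of mitochondrial ATP synthase, at -0.90, a gene named after its value was seen. None of these 9 genes passed the threshold between the genotypes (limma adjusted p from 0.731 to 0.996).

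The submitters' array descriptions carry a number whose meaning is not given, which lies in the wild-type range for knockout replicates 7 and 8 alone among the knockout arrays. Those 2 arrays had the lowest TCA means of all. With them as the only knockout arrays 32 of 37 members were lower, the median log2 difference of the TCA and pyruvate genes was -0.11 and 7 members had an unadjusted p below 0.05, against 9.54% of all probe sets. Fh1 gave the lowest p of these, with a difference of -0.34 (SE 0.09; limma adjusted p = 0.377). Without them 24 of 37 members were higher and that median was 0.05. The median over all probe sets was -0.0137 with them alone and -0.00750 without them. The share of all named genes higher or lower was not counted in these comparisons. No member passed the adjusted threshold in either comparison.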

How the data were processed

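The authors deposited 1 log2 expression value per probe set and array, and the submitters' processing notes name RMA as a method. RMA corrects background, aligns the distributions of arrays and summarises probes, so a shift shared by most genes is removed. Other tools in those notes, without a stated use, are limma, affy 1.18 and version 1.1.2800.19935 of Expression Console by Affymetrix. Biotinylated cDNA came from 10 ng total RNA, per the labels' protocols. No genome build for the probe sets is named by these sources. Detection could not be assessed from these values, and the number of arrays limits the precision.

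Names came from the platform annotation, with symbols updated through the RefSeq gene table of GRCm38.p6 for 21698 probe sets. The annotation held a single symbol for 21789 probe sets, more than 1 for 1621 and no symbol for 12147. Groups came from the submitters' titles. A limma model (version 3.58.1, R 4.3.3; lmFit, then eBayes) of genotype alone was fitted to all 35557 probe sets without a filter, with two-sided p-values. Adjusted p-values follow Benjamini-Hochberg across the whole array, with a threshold of 0.05. SEs and intervals are limma's. Correlations used deviations from genotype means.

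The members and lists were chosen with earlier results of these data known. Named in full are, per role, the brightest member and that with the lowest p, and, of each further pathway list, the 3 with the lowest p. For covariation the named genes are the 3 members with the highest and the 3 with the lowest r, the 3 closest pairs and the 8 most similar other genes. Other values given for members describe the rest of each role. Alternatives were quantile normalization, median centring, removal of the dimmest 33% of probe sets, an intensity trend with a robust prior, weights for arrays, averaging of a gene's probe sets, omission of arrays, and a block for the replicate number. Same-numbered mice of the 2 genotypes did not deviate together in every pair (correlations of -0.12 to 0.248), so the numbers were not taken as pairs. Tested on simulated data of the same size (35557 probe sets), the fit recovered 26% of probe sets shifted by 0.3 on the log2 scale, 56% at 0.5 and 94% at 1. The simulated noise was normal and independent between probe sets. It lacked the correlation between genes and the arrays set apart that the real data hold. Figures were drawn with matplotlib 3.10.9.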

Additional observations from a re-analysis of the deposited data

Results flagged for a closer look

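Of 80 groups of 7 or 8 values examined, covering the 37 members, Sfrp5 and both pathway means in each genotype, 3 held a value set apart from the rest of its group by Dixon's criterion, and chance flags about 1 group in 20. Cs read 11.27 in wild-type replicate 1, and the other wild-type arrays lay between 10.95 and 11.05. In wild-type replicate 7 Suclg1 read 9.62, where the other wild-type arrays lay between 9.79 and 9.85. In the same array Etfb read 10.97, where the others lay between 11.42 and 11.72. No cause of these values was tested.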

How the results depend on the processing

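No member passed the adjusted threshold under any of 11 alternative settings or in any of 15 fits that left out 1 array. The number at an unadjusted p below 0.05, 0 as reported, was 3 after quantile normalization (Idh2, Acadm and Acaa2, all lower; 9.07% of all probe sets passed), 1 with an intensity trend and robust prior (Etfa; 9.97%), 2 without knockout replicates 7 and 8 (Dld and Etfa; 8.19%), 7 with these as the only knockout arrays (9.54%), and 0 to 2 with 1 array left out. Quantile normalization left 11 of 37 members higher, and the share of all named genes higher there was not counted. The TCA and pyruvate median was -0.11 with knockout replicates 7 and 8 alone and between -0.03 and 0.05 in the 9 other settings. The fatty acid oxidation median lay between -0.05 and 0.03. The correlation of the pathway means was 0.926 with knockout replicates 7 and 8 alone, 0.929 within wild type, 0.732 with the adipocyte mean regressed out (chosen after seeing the data), and 0.805 to 0.910 with 1 array left out. The cause of these moves was not tested.

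Signs near 0 changed. Idh3g (-0.0474) and Decr1 (-0.0378) turned after quantile normalization, and with knockout replicates 7 and 8 alone Idh3g (-0.0742), Decr1 (-0.0319), Pdhb (-0.000266), Cpt2 (-0.0325) and Ppard (0.0767) turned. Ppard was 0.0200 with array weights and 0.0461 without the epididymal arrays. Pdha1 was 0.000508 without the macrophage-high arrays and 0.0712 without knockout replicates 7 and 8. With 1 array left out Pdha1 ran from -0.0472 to 0.0312 and Ppard from -0.0315 to 0.0277. Sfrp5 missed the adjusted threshold without the epididymal arrays (-1.17), without the macrophage-high arrays (-1.21), with knockout replicates 7 and 8 alone (-0.93) and with the replicate block (-1.28), and ran from -1.29 to -1.13 with 1 array left out, passing in 8 of 15 fits. With the replicate number as a block 0 members had an unadjusted p below 0.05, and Pdha1 was 0.0129. The same numbers did not mark mice that deviated together.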
